A study of Mus musculus with 6 samples.

Results

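The integrated stress response is followed here through ATF4 and its effectors, 10 genes (Atf4, Atf5, Atf3, Ddit3, Nupr1, Trib3, Chac1, Sesn2, Ddit4 and Ppp1r15a) chosen by their known place in the pathway out of 20756 genes in the table. These members, and the lists of related genes used below, were chosen with earlier results of these data known. Their counts beside those of all genes are therefore a description and no independent support. Each symbol matched 1 Ensembl gene, and all 10 passed the filter on low values. The samples are mouse material that the labels call MTO, of strain C57BL/6, in 2 genotypes: 3 samples with guides against Prkci and Prkcz (sgPrkci/Prkcz), which encode the 2 atypical members of the protein kinase C family, and 3 samples with a control guide (sgC). Per the labels' protocols all of them received EGF at 50 ng/ml in culture and no treatment, and 200 ng of total RNA went into each 3′ tag library (QuantSeq). Tumors and a larger number of replicates appear in the study's design text, but the table of 6 libraries is marked as in vitro. No source used here says whether the edited cells were 1 clone or a pool, or whether replicates came from separate cultures. The p-values therefore speak only of the spread among these 6 libraries, part or all of which may be technical.

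Cells answer amino acid shortage, haem shortage, double-stranded RNA and misfolded protein in the endoplasmic reticulum by phosphorylating the translation factor eIF2. Bulk protein synthesis then slows, while the mRNAs of ATF4 and ATF5, which carry upstream open reading frames, are translated more. ATF4 pairs with other basic leucine zipper proteins, among them C/EBP factors, and activates genes for amino acid synthesis, amino acid uptake and tRNA charging, as well as stress effectors and the feedback subunit that removes the phosphate from eIF2. Growing cells use this program to keep amino acid supply in step with protein synthesis. The mRNA values below do not measure translation or protein.

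In sgPrkci/Prkcz samples the mRNAs of Atf4, Atf5, Trib3, Chac1 and Nupr1 were lower than in sgC samples, and Sesn2 and Ppp1r15a were lower too, with calls that did not hold in every alternative. Ddit3, Atf3 and Ddit4 did not pass the test. Of the 10 members 7 fell and 0 rose (limma, Benjamini-Hochberg over all genes), beside 23.8% of all tested genes that fell and 11.4% that rose. Without adjustment, at a p under 0.05, the number risen was also 0. By edgeR 5 members fell and 0 rose, beside 18.2% of its 9842 tested genes that fell and 19.9% that rose. In 7 members every sgPrkci/Prkcz library was below every sgC library, which held for 30% of tested genes, and the reverse held for 0 members and 15% of tested genes. The median log2 fold change of the members was -0.62, beside -0.17 for all 12207 tested genes. With that shift of all genes set to 0, 5 members fell (Atf4, Atf5, Trib3, Chac1 and Nupr1) and 0 rose, beside 14.4% and 17.4% of tested genes.

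**Figure D1:**
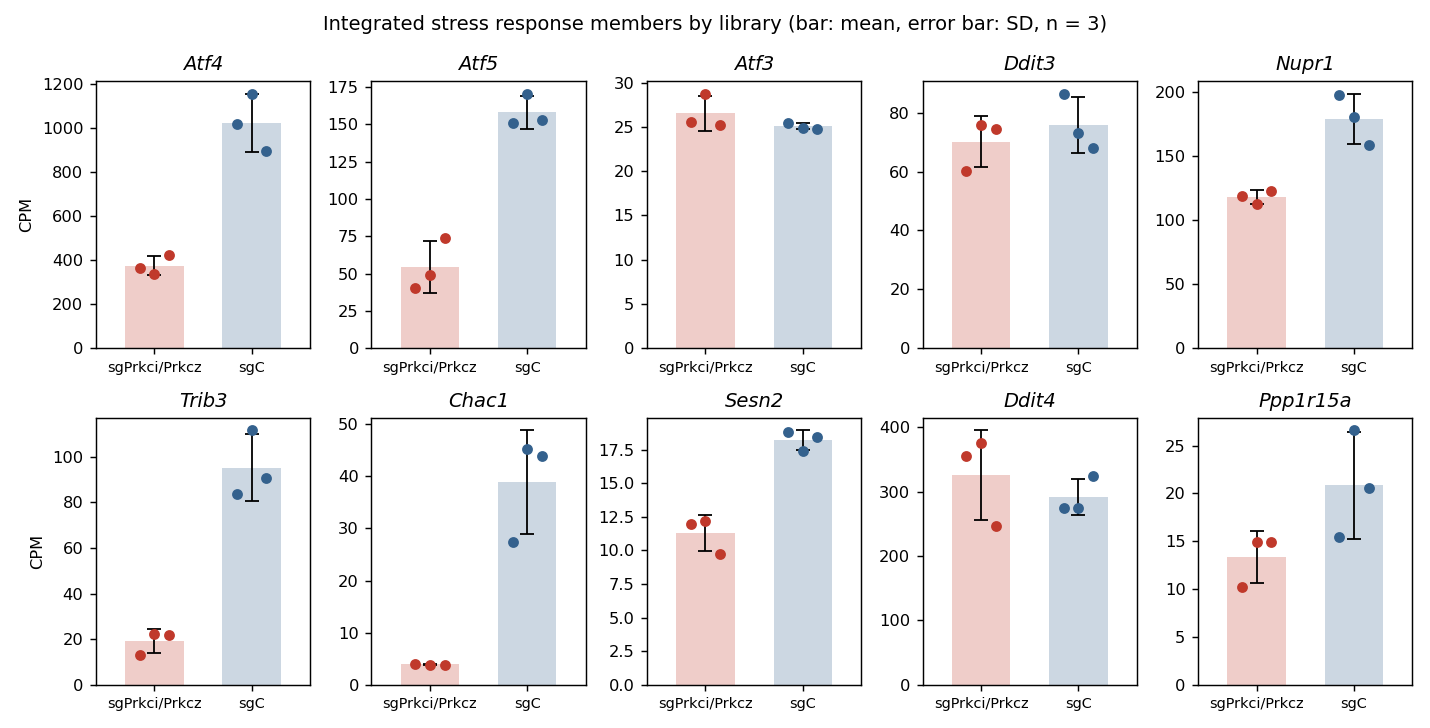
CPM of each member in every library (points), with the mean (bar) and SD (error bar, n = 3 per genotype), sgPrkci/Prkcz in red and sgC in blue. All 3 sgPrkci/Prkcz libraries lie below all 3 sgC libraries for 7 members, while Atf3, Ddit3 and Ddit4 overlap.

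Depth followed genotype: the sgPrkci/Prkcz libraries held 1543826 to 1808292 reads and the sgC libraries 2821908 to 3048170. With all libraries thinned to equal depth 6 members fell and 0 rose, and the shares of all genes called in that fit are not given here. The share of reads on the ribosomal RNA-like genes mt-Rnr1, mt-Rnr2 and Gm42418 also followed genotype, at 24.3%, 24.6% and 22.2% in sgPrkci/Prkcz and 21.9%, 21.9% and 21.2% in sgC, without overlap. As a check of the labels, Prkcz had 3.98, 1.66 and 0.648 CPM in sgPrkci/Prkcz, against 6.37, 5.58 and 4.96 CPM in sgC. These values rested on only 11 reads in sgPrkci/Prkcz and 50 in sgC. Prkci had 55.1, 54.2 and 53.8 CPM in sgPrkci/Prkcz, against 46.6, 54.5 and 63.8 CPM in sgC. It overlapped between the genotypes and did not pass the test, so of the edited genes only Prkcz was lower. Tags at the 3′ end need not reach the edited bases, so these values leave the protein unchecked. The 9 epithelial markers listed, such as Epcam and Cdh1, summed to 4180 to 4728 CPM in sgPrkci/Prkcz and 3547 to 4101 CPM in sgC. Of these 4 rose and 1 fell, beside 11.4% and 23.8% of all tested genes. The 3 leukocyte markers in the table summed to 7.74 to 14.3 CPM in sgPrkci/Prkcz and 5.25 to 7.71 CPM in sgC. The endothelial markers Pecam1 and Cdh5 were at 0 in all libraries, and the remaining one in the table reached 0.335 CPM in sgC and 0 in sgPrkci/Prkcz. The 5 fibroblast markers summed to 0.553 to 0.648 CPM in sgPrkci/Prkcz and 0.328 to 2.35 CPM in sgC. The 2 muscle markers summed to 0 in sgPrkci/Prkcz and to at most 0.670 CPM in sgC. The part of other cell types and of the ribosomal RNA share in the results was not tested, and fewer cells of a type and less RNA per cell cannot be told apart in such samples.

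Atf4, the central transcription factor of the response, lies on chromosome 15 (80255184 to 80257541, plus strand; ENSMUSG00000042406). It had 362, 339 and 425 CPM in sgPrkci/Prkcz, against 1022, 1158 and 895 CPM in sgC. The highest sgPrkci/Prkcz library stood at less than 0.5 times the lowest sgC library, so the genotypes did not overlap. The mean was 375 ± 44.4 CPM in sgPrkci/Prkcz and 1025 ± 131 CPM in sgC (SD, n = 3 each), a log2 fold change of -1.45 ± 0.09 (SE; limma, Benjamini-Hochberg adjusted p = 3.1e-12). It rested on 1907 reads in sgPrkci/Prkcz and 9104 in sgC, and the ratio of pooled CPM, 36.3%, had a 95% counting interval of 34.5% to 38.1%.

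Atf5, the closest relative of Atf4 among the members and under the same translational control, lies on chromosome 7 (44812256 to 44816658, minus strand; ENSMUSG00000038539). It had 40.3, 49.2 and 73.8 CPM in sgPrkci/Prkcz, against 151, 171 and 153 CPM in sgC. The sgPrkci/Prkcz libraries spread more, with a coefficient of variation of 31.9% against 6.89% in sgC, and replicate 3 was the highest of them, as it was for Atf4. The genotypes did not overlap, and the log2 fold change was -1.56 ± 0.16 (SE; limma, Benjamini-Hochberg adjusted p = 3.71e-07).

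Nupr1, which encodes a small stress-induced nuclear protein, fell by less. On chromosome 7 (126623249 to 126630861, minus strand), it had 119, 113 and 123 CPM in sgPrkci/Prkcz, against 198, 181 and 159 CPM in sgC. All sgPrkci/Prkcz libraries were below all sgC libraries, and the log2 fold change was -0.59 ± 0.10 (SE; limma, Benjamini-Hochberg adjusted p = 3.03e-05).

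The other transcription factors of the response did not pass the test. Ddit3 (chromosome 10, 127290774 to 127296288, plus strand) encodes CHOP, which turns on cell death genes in prolonged stress. It had 60.2, 75.8 and 74.5 CPM in sgPrkci/Prkcz, against 86.5, 73.2 and 68.0 CPM in sgC, and the genotypes overlapped. Its log2 fold change of -0.11 ± 0.13 (SE; limma, Benjamini-Hochberg adjusted p = 0.527) turned positive (0.05) with the median of all genes set to 0. The pooled reads, 358 in sgPrkci/Prkcz and 673 in sgC, gave a CPM ratio of 92.1% with a 95% counting interval of 80.8% to 105%.

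Atf3, a stress-inducible factor that can repress its own promoter, lies on chromosome 1 (191170296 to 191218039, minus strand). It had 25.6, 28.8 and 25.3 CPM in sgPrkci/Prkcz, against 25.5, 24.9 and 24.8 CPM in sgC. The sgC libraries were nearly level, and the genotypes overlapped. The log2 fold change was 0.08 ± 0.17 (SE; limma, Benjamini-Hochberg adjusted p = 0.763), with a counting interval of 85.1% to 132% for the ratio of pooled CPM.

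Among the effectors that ATF4 induces, Chac1 and Trib3 fell the furthest. Chac1 (chromosome 2, 119351229 to 119354381, plus strand; ENSMUSG00000027313) encodes a cyclotransferase that breaks down glutathione. It had 3.98, 3.87 and 3.89 CPM in sgPrkci/Prkcz, from 7, 7 and 6 reads, against 27.5, 45.3 and 43.9 CPM in sgC, from 82, 138 and 124 reads. The sgPrkci/Prkcz libraries differed from each other by less than the worth of 1 read, and sgC replicate 1 was the lowest of its group. The log2 fold change was -2.99 ± 0.23 (SE; limma, Benjamini-Hochberg adjusted p = 3e-11), and 27 of the 12207 tested genes fell further. On that scale a low gene's change is understated: the ratio of pooled CPM was 10.1%, with a 95% counting interval of 6.07% to 15.8%, and edgeR gave -3.15.

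Trib3 (chromosome 2, 152337422 to 152344032, minus strand; ENSMUSG00000032715) encodes a pseudokinase that binds AKT and feeds back on ATF4. It had 13.1, 22.1 and 22.0 CPM in sgPrkci/Prkcz, against 83.5, 112 and 90.7 CPM in sgC. The lowest sgC library was over 3 times the highest sgPrkci/Prkcz library. Its mean was 19.1 ± 5.20 CPM in sgPrkci/Prkcz and 95.2 ± 14.6 CPM in sgC (SD, n = 3 each), a log2 fold change of -2.29 ± 0.17 (SE; limma, Benjamini-Hochberg adjusted p = 3.23e-11), and 58 tested genes fell further.

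Sesn2 and Ddit4 both encode restraints on the growth kinase mTORC1. Sesn2 (chromosome 4, 132492032 to 132510501, minus strand), a leucine-binding inhibitor of the pathway, had 11.9, 12.2 and 9.72 CPM in sgPrkci/Prkcz, against 18.8, 17.4 and 18.4 CPM in sgC. These libraries did not overlap, and the log2 fold change was -0.65 ± 0.21 (SE; limma, Benjamini-Hochberg adjusted p = 0.0167). It rested on 58 reads in sgPrkci/Prkcz and 161 in sgC, and the call was lost in 7 of 19 alternatives, with edgeR (adjusted p = 0.0616) among them.

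Ddit4 (chromosome 10, 59949669 to 59951834, minus strand) encodes REDD1, which acts through the TSC complex and also answers hypoxia. It had 356, 375 and 246 CPM in sgPrkci/Prkcz, against 275, 275 and 324 CPM in sgC. Replicates 1 and 2 of sgPrkci/Prkcz were above every sgC library and replicate 3 was below every one of them. The log2 fold change was 0.14 ± 0.13 (SE; limma, Benjamini-Hochberg adjusted p = 0.441). Without sgPrkci/Prkcz replicate 3 it was 0.33 (adjusted p = 0.00834), which would count as a rise.

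Ppp1r15a (chromosome 7, 45522916 to 45526268, minus strand) encodes GADD34, the subunit that directs a phosphatase to eIF2 and ends the response. It had 10.2, 14.9 and 14.9 CPM in sgPrkci/Prkcz, against 15.4, 26.6 and 20.6 CPM in sgC. The gap between the genotypes was small, with sgC replicate 1 close to the highest sgPrkci/Prkcz libraries. The log2 fold change was -0.59 ± 0.22 (SE; limma, Benjamini-Hochberg adjusted p = 0.0371), and the call was lost in 12 of 19 alternatives, with edgeR (adjusted p = 0.0872) among them.

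**Figure D2:**
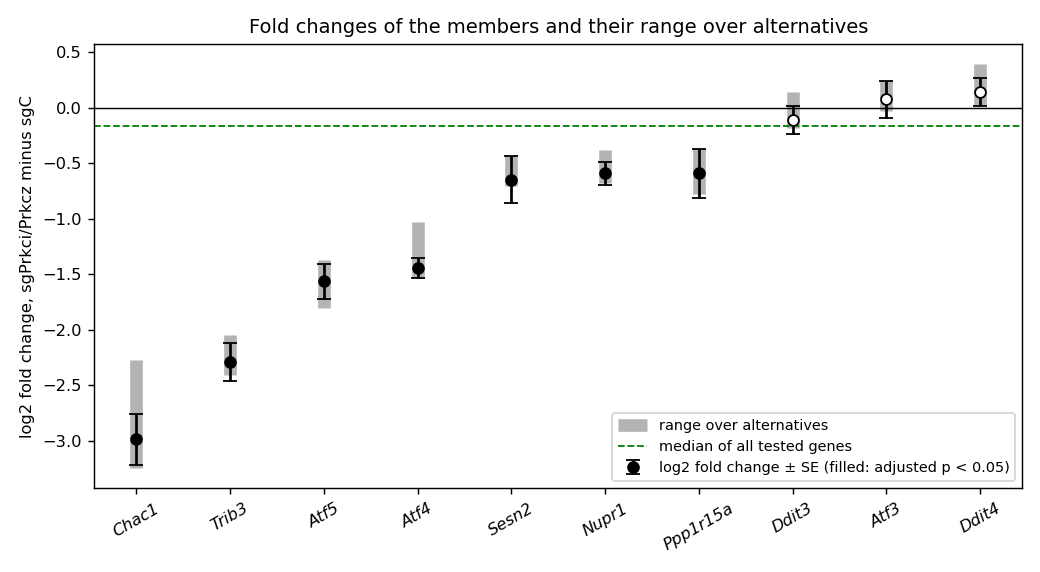
Log2 fold change of each member, sgPrkci/Prkcz minus sgC, with its SE (points, filled where the adjusted p is under 0.05), the range over the 19 alternatives (grey) and the median of all tested genes (dashed line, -0.17). Chac1, Trib3, Atf5 and Atf4 stay below -1 in every alternative, and the ranges of Ddit3 and Atf3 include 0.

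The window of 250 bases before to 50 after each transcription start was searched on both strands for known stress elements (RefSeq, GRCm38.p6; 11 windows for the 10 members). The core of the C/EBP-ATF response element, TGATGNAA, was in the windows of Chac1, Nupr1, Atf3 and Trib3, beside 3.97% of all 32851 windows. Its strict form TGATGCAAT, which contains that core, was in the window of Nupr1 and in 0.192% of all windows. The full cyclic AMP response element TGACGTCA was in that of Ppp1r15a and in 1.79% of all windows, and the endoplasmic reticulum stress element was in 0 of the 11 and in 0.119% of all. The members were chosen for their known place in the pathway, so these shares are a description and no test of the elements. The matches are printed with their flanks, 5′ to 3′ along the gene's own strand, with the match in capitals. Chac1 and Nupr1, which fell, and Atf3, which did not pass the test, carry the same 8 letters.
Chac1, chr2:119351019-119351086, plus strand: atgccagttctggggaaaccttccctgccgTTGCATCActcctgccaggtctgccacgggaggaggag
Nupr1, chr7:126625543-126625610, minus strand: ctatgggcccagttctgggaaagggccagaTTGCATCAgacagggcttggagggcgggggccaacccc
Atf3, chr1:191183406-191183473, minus strand: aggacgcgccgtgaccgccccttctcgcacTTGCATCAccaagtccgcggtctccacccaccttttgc
Trib3, chr2:152344029-152344056, minus strand: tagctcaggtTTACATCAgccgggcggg
Ppp1r15a, chr7:45526269-45526310, minus strand: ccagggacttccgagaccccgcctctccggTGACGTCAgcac

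In Chac1, Nupr1 and Atf3 the core read TTGCATCA, its reverse complement, starting at position -193, -110 and -110 from the RefSeq start. In Trib3 it read TTACATCA, starting 15 bases into the RefSeq transcript. These RefSeq starts differ from the ends of the gene spans given above, which came from GENCODE. The matches of Chac1 and Trib3 lie outside those spans, and the matches of Nupr1 and Atf3 lie inside them. Of these genes Chac1, Trib3 and Nupr1 fell and Atf3 did not pass the test. The windows of Atf4, Atf5, Ddit3, Ddit4 and Sesn2 held none of the 4 motifs, which says only that these letters are not in those windows.

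Each member was also set against Atf4 in the same library, which does not depend on library scaling except through the pseudocount. Relative to Atf4, Ddit3 stood at -2.40 ± 0.23 on the log2 scale in sgPrkci/Prkcz and -3.74 ± 0.21 in sgC (SD, n = 3 each), a difference of 1.33. Atf3 (difference 1.52) and Ddit4 (1.58) were likewise higher relative to Atf4 in all 3 sgPrkci/Prkcz libraries, as were Nupr1 (0.85), Ppp1r15a (0.85) and Sesn2 (0.79). Each difference is the member's log2 fold change minus that of Atf4, so a member that fell by less than Atf4 stands higher here. Chac1 relative to Atf4 was lower, at -6.25 ± 0.17 in sgPrkci/Prkcz and -4.71 ± 0.43 in sgC, and so was Trib3, at -4.26 ± 0.41 in sgPrkci/Prkcz and -3.42 ± 0.16 in sgC. Atf5 alone of the 9 kept overlapping values, at -2.80 ± 0.32 in sgPrkci/Prkcz and -2.68 ± 0.12 in sgC. For the other 8 the exact two-sided permutation test gave p = 0.1, the smallest that 3 against 3 libraries can give, and the Benjamini-Hochberg adjusted value over 9 comparisons was 0.113. For Atf5 the exact permutation test gave p = 0.7.

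**Figure D3:**
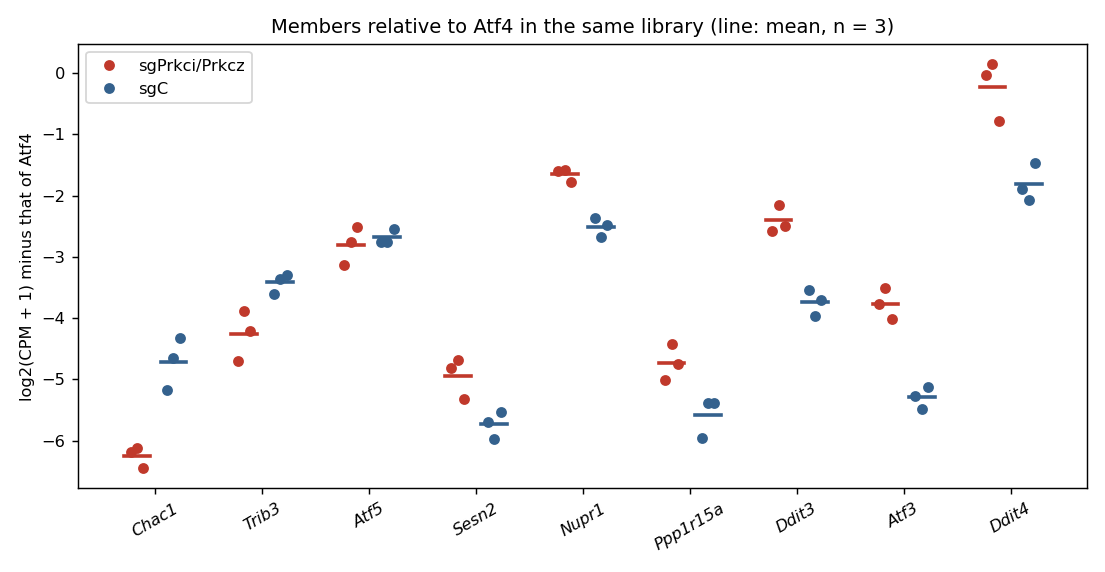
Log2(CPM + 1) of each member minus that of Atf4 in the same library (points; line, mean of 3), sgPrkci/Prkcz in red to the left of sgC in blue. Chac1 and Trib3 lie lower relative to Atf4 in sgPrkci/Prkcz, Atf5 overlaps, and the other 6 members lie higher.

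Neighbouring genes shifted with some members. Of 147 tested genes within 5 Mb of Atf4, 56 fell and 4 rose, and their median log2 fold change was -0.41, near the -0.39 of all 458 tested genes on chromosome 15. With that local median removed, Atf4 stood at -1.03 (limma, Benjamini-Hochberg adjusted p = 1.34e-09). The genes around Chac1 had a median of -0.39 and those around Trib3 -0.24. With the local median removed, Chac1 stood at -2.60 and Trib3 at -2.04. For Atf5, where the local median was -0.11, the value was -1.46, and for Nupr1 it was -0.38 (adjusted p = 0.00336).

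Upstream of ATF4, the mRNAs of the eIF2 kinases were not called together. Eif2ak4, which encodes the amino acid sensor GCN2, fell to 13.8 ± 2.61 CPM in sgPrkci/Prkcz, against 20.7 ± 1.17 CPM in sgC (SD, n = 3 each; limma, Benjamini-Hochberg adjusted p = 0.0316). That call was lost in 11 of 18 alternatives (highest adjusted p = 0.356), among them the median of all genes set to 0, edgeR, DESeq2, and leaving out any 1 sgC library or sgPrkci/Prkcz replicate 1 or 2. Gcn1l1, whose product activates GCN2, also fell (log2 fold change -0.56). The other kinases did not pass the test: log2 fold changes were 0.26 for Eif2ak3 (PERK, the sensor in the endoplasmic reticulum), 0.34 for Eif2ak2 (PKR, the sensor of double-stranded RNA) and 0.11 for Eif2ak1 (HRI, the haem sensor). Eif2ak2 would count as risen in 7 of 18 alternatives, with the median of all genes set to 0 and edgeR among them. The 4 kinases were named for their role, after their values were seen. Eif2s2, the beta subunit of eIF2, fell to 842 ± 36.7 CPM in sgPrkci/Prkcz, against 1525 ± 74.0 CPM in sgC, and the exchange factor subunits Eif2b3 (-1.10) and Eif2b4 (-0.52) fell too. Of 19 tested genes of eIF2 kinases and machinery 7 fell (36.8%, beside 23.8% of all tested genes) and 0 rose (1 rose when p under 0.05 was left unadjusted). The calls of Gcn1l1 and Eif2b4 were lost with the median of all genes set to 0 and with DESeq2, and that of Eif2b3 with DESeq2. These counts depended on the scaling: with the median of all genes set to 0, 2 fell, a share below the 14.4% of all tested genes, and 1 rose. By edgeR 4 fell and 1 rose of 18, beside 18.2% and 19.9% of its tested genes.

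Of 25 tested partners and modifiers of ATF4, 5 fell (20%, near the 23.8% of all tested genes) and 6 rose (24%, beside 11.4%). Jdp2, which encodes a Jun-dimerizing factor close to ATF3 in sequence, fell to 28.8 ± 8.72 CPM in sgPrkci/Prkcz, against 64.1 ± 14.1 CPM in sgC (SD, n = 3 each; log2 fold change -1.15). Nfe2l2, which encodes the antioxidant factor NRF2, also fell (-0.87). Egln3, a prolyl hydroxylase gene, rose to 1282 ± 61.7 CPM in sgPrkci/Prkcz, against 463 ± 1.16 CPM in sgC (1.47), and Junb rose as well (0.43). Cebpb, a C/EBP partner, had 69.3 ± 9.82 CPM in sgPrkci/Prkcz and 69.3 ± 5.96 CPM in sgC and did not pass the test.

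Most paralogs of the members did not pass the test. Of 13 tested, 3 fell (Jdp2, Sesn3 and Cebpg), a share of 23.1% that is near the 23.8% of all tested genes. Jdp2 and Cebpg also count among the fallen partners of ATF4 above. The number risen was 0, beside 11.4%, and without adjustment it was 0 as well. By edgeR 2 fell and 1 rose (Atf2) of 12, beside 18.2% and 19.9% of its tested genes. Sesn3, another sestrin, fell to 58.6 ± 3.84 CPM in sgPrkci/Prkcz, against 87.8 ± 5.62 CPM in sgC (SD, n = 3 each; limma, Benjamini-Hochberg adjusted p = 3.18e-04). Cebpg (-0.34) lost its call in 10 of 18 alternatives, with the median of all genes set to 0 and without sgC replicate 2 or 3 or sgPrkci/Prkcz replicate 3 among them. Ppp1r15b, the constitutive counterpart of Ppp1r15a, had a log2 fold change of 0.12 and did not pass, nor did Chac2 (-0.18), Trib1 (0.18), Trib2 (0.14), Sesn1 (0.19), Atf1 (-0.29), Atf2 (0.25), Atf6 (0.09), Atf6b (-0.03) and Atf7 (-0.30). With the median of all genes set to 0, Atf2 and Ppp1r15b would count as risen. Ddit4l had 0 reads in sgPrkci/Prkcz and 9 in sgC. Nupr1l had 4 reads in sgPrkci/Prkcz and 10 in sgC, and Batf3 had 1 and 2 reads in the same order, so these were too low to test.

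Most of the amino acid genes that ATF4 is known to activate fell. In amino acid synthesis, 18 of 24 tested genes fell (75%, beside 23.8% of all tested genes) and 1 rose, with a median log2 fold change of -0.91. Mthfd2 and Shmt2, mitochondrial enzymes of folate metabolism, fell to 68.8 ± 10.4 and 23.2 ± 2.51 CPM in sgPrkci/Prkcz, against 261 ± 16.7 and 101 ± 8.19 CPM in sgC (SD, n = 3 each). Psph, the last enzyme of serine synthesis, had a log2 fold change of -1.56. Pycr1, of proline synthesis, fell by 2.01 on the log2 scale, and Cth, of cysteine synthesis, fell by 2.32. Over 18 alternatives the number fallen ranged between 13 and 18.

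Of the cytosolic aminoacyl-tRNA synthetases, which charge tRNAs with amino acids, 17 of 20 fell (85%, beside 23.8% of all tested genes). The number risen was 0, beside 11.4%. By edgeR the counts were the same, beside 18.2% of its tested genes that fell and 19.9% that rose. Without adjustment 18 fell and 0 rose. Nars, for asparagine, fell to 426 ± 21.3 CPM in sgPrkci/Prkcz, against 1008 ± 72.0 CPM in sgC (SD, n = 3 each). Tars, for threonine, had a log2 fold change of -1.54, Lars, for leucine, of -1.34 and Rars, for arginine, of -1.28. Gars, for glycine, fell to 149 ± 2.63 CPM in sgPrkci/Prkcz, against 299 ± 10.5 CPM in sgC. Qars, for glutamine, had 144 ± 13.5 CPM in sgPrkci/Prkcz and 144 ± 9.66 CPM in sgC, and Dars (-0.26) and Farsb (-0.19) also did not pass. The number fallen ranged between 15 and 18 over 18 alternatives.

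Of 17 tested amino acid transporters 10 fell (58.8%, beside 23.8% of all tested genes) and 2 rose (11.8%, near the 11.4% of all). Slc7a1, which carries arginine and lysine, fell to 89.3 ± 4.61 CPM in sgPrkci/Prkcz, against 211 ± 20.3 CPM in sgC (SD, n = 3 each), and Slc38a1 (-1.09), Slc1a4 (-1.34), Slc38a2 (-0.61) and Slc3a2 (-0.68) fell with it. The call of Slc38a2 was lost with chromosome medians removed. Slc7a11, the cystine importer, went against this with 598 ± 24.4 CPM in sgPrkci/Prkcz and 589 ± 31.1 CPM in sgC and did not pass the test. The genes that rose were Slc7a8 (1.26), from 17 reads in sgPrkci/Prkcz and 7 in sgC, and Slc36a4 (0.55), and they were named after their values were seen. Both calls were lost with DESeq2, and that of Slc36a4 also with no filter and without sgPrkci/Prkcz replicate 1 or any 1 sgC library. The number of transporters fallen ranged between 7 and 11 over 18 alternatives, and the number risen between 0 and 2.

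**Figure D4:**
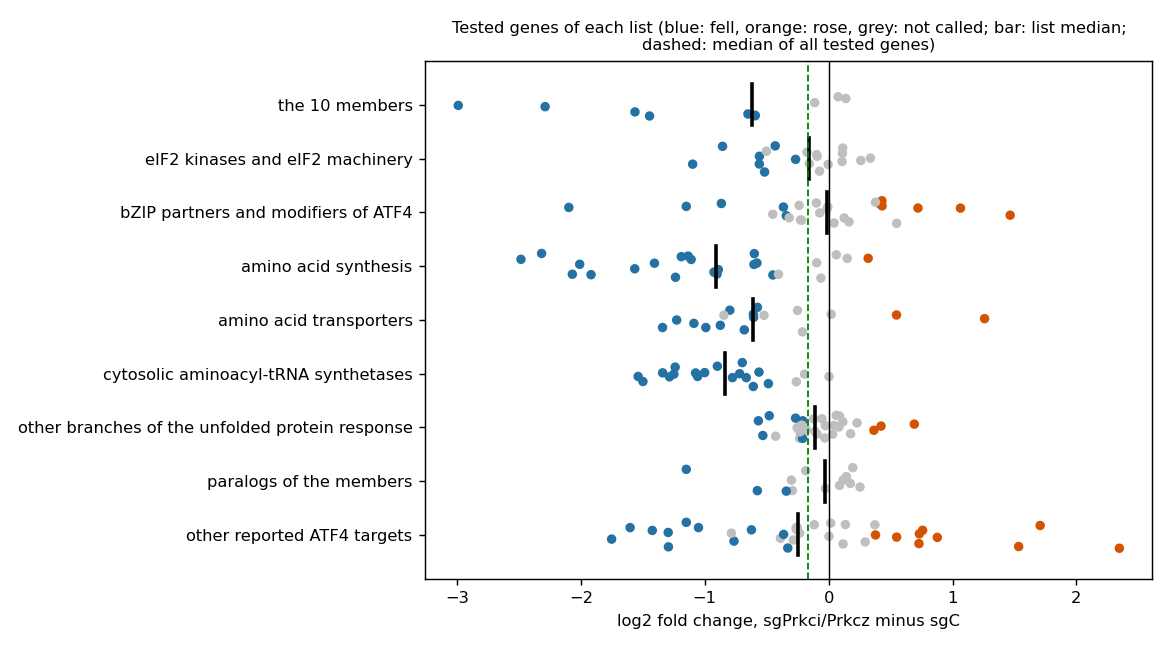
Log2 fold change, sgPrkci/Prkcz minus sgC, of every tested gene in each list (blue fell, orange rose, grey not called), with the list median (bar) and the median of all tested genes (dashed line). Amino acid synthesis, aminoacyl-tRNA synthetase and transporter genes lie mostly below the dashed line, while the other branches of the unfolded protein response are spread around it.

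Genes of the other branches of the unfolded protein response, which run through IRE1 with XBP1 and through ATF6, had calls near the background of 23.8% fallen and 11.4% risen. Of 31 tested, 6 fell (19.4%) and 3 rose (9.68%), with a median log2 fold change of -0.11. Hspa5, the chaperone BiP, fell to 1628 ± 40.7 CPM in sgPrkci/Prkcz, against 1960 ± 112 CPM in sgC (SD, n = 3 each; log2 fold change -0.27), and its call was lost with the median of all genes set to 0 and with edgeR. Derl1 (-0.53), which acts in export of misfolded protein, and the protease gene Mbtps1 (-0.57) also fell, while the mannosidase-like gene Edem3 (0.69) and the disulfide isomerase gene Pdia6 (0.37, its call lost in limma without trend) rose. With chromosome medians removed 0 of these genes fell. With the median of all genes set to 0, 2 of the 31 fell and 5 rose, beside 14.4% and 17.4% of all tested genes.

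A further list of 34 tested genes reported as ATF4 targets split, with 11 fallen (32.4%, beside 23.8% of all tested genes) and 9 risen (26.5%, beside 11.4%). Hmox1, the haem oxygenase gene that NRF2 also drives, fell to 92.8 ± 19.2 CPM in sgPrkci/Prkcz, against 312 ± 37.8 CPM in sgC (SD, n = 3 each), and Eif4ebp1, a brake on translation initiation, had a log2 fold change of -1.29. Txnip, a thioredoxin inhibitor, rose to 96.2 ± 8.14 CPM in sgPrkci/Prkcz, against 18.1 ± 1.83 CPM in sgC. The BH3-only cell death gene Pmaip1 (1.71) and Ero1l, an oxidase of the endoplasmic reticulum (0.73), rose as well. These genes have other regulators besides ATF4.

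The genes whose pattern was most like that of Atf4 over the 6 libraries included aminoacyl-tRNA synthetases. Likeness was the Euclidean distance between centred log2(CPM + 1) values, among 7708 genes with a mean of at least 10 CPM. The closest was Mars, the methionyl-tRNA synthetase (distance 0.200), which had 32.4, 29.3 and 33.0 CPM in sgPrkci/Prkcz, against 87.2, 101 and 85.0 CPM in sgC. Ftsj3, which acts in ribosome assembly (0.242), Gpatch4 (0.270), Yars, the tyrosyl-tRNA synthetase (0.272), and Scrn1 (0.300) followed. Among the members Atf5 was the nearest to Atf4, at rank 68 (0.500). Most of such a distance is set by the difference between the genotypes, so it is a description over 6 libraries of 2 kinds.

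**Figure D5:**
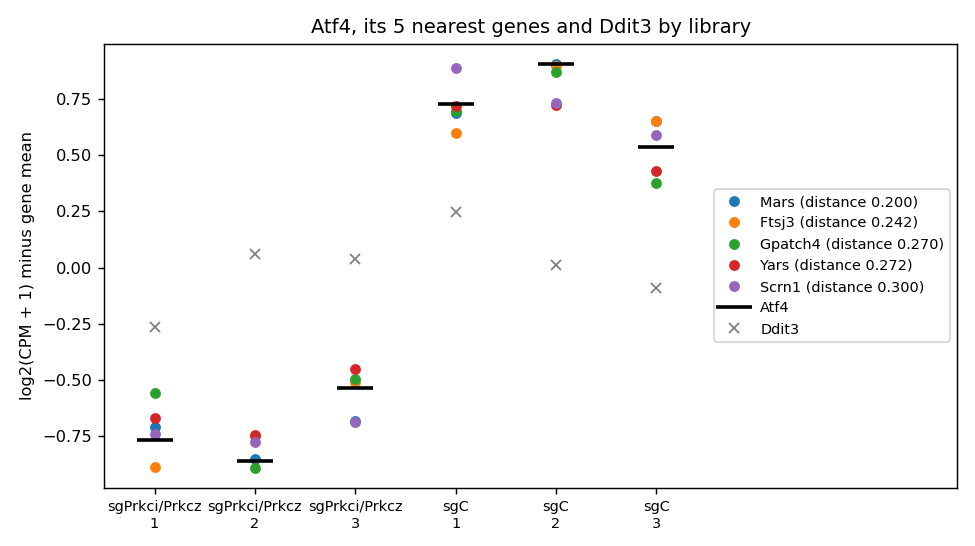
Log2(CPM + 1) minus each gene's mean over the 6 libraries, for Atf4 (black bars), its 5 nearest genes (coloured points) and Ddit3 (crosses), with the sgPrkci/Prkcz libraries left of the sgC libraries. The nearest genes keep close to Atf4 in every library, and Ddit3 overlaps between the genotypes.

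Mars and Ddit3 share part of chromosome 10 on opposite strands, and the strand setting of the counting is not given, so reads from their shared bases cannot be told apart with certainty. Atf5 likewise overlaps Nup62 on the opposite strand, which averaged 50.0 CPM over the 6 libraries. Other genes in the table that overlap a member were low: Il4i1 at Atf5 averaged 0.668 CPM, Gm4189 at Ddit3 0.37 CPM, Gm12981 at Sesn2 0.164 CPM and Tulp2 at Ppp1r15a 0.092 CPM.

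The promoter windows of the other genes were counted in the same way. Among the list genes outside the members that had a window, 12 of 18 with the core TGATGNAA fell (66.7%) and 0 rose, while 38 of 112 without it fell (33.9%) and 13 rose. The 12 were Pycr1, Tars, Slc1a4, Yars, Pck2, Jdp2, Asns, Aars, Iars, Gars, Slc7a7 and Got1. Among all tested genes outside the members with a window, list genes included, 71 of 236 with the core fell (30.1%) and 24 rose (10.2%). Of the 8703 without it, 2141 fell (24.6%) and 1035 rose (11.9%). The lists hold genes known as ATF4 targets, so these shares are a description and no test of the element.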

How the data were processed

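The authors deposited CPM values, scaled so that each library's genes sum to 1000000, for 20756 Ensembl genes in 6 libraries. GRCm38 is the build in the submitters' processing notes. No aligner, counter, strand setting or use of molecular identifiers is stated there. GENCODE (GRCm38) supplied symbols, found for 20675 identifiers, and gene positions. Sample titles linked columns to genotypes.

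For 100% of the values above 0, the value was a whole multiple of the smallest one in its column (relative tolerance 1e-06), so whole reads were recovered. The 95% intervals on ratios, computed exactly from these reads, cover counting error alone. Genotype was tested with limma (3.58.1, in R 4.3.3; trend and robust options) on log2(CPM + 1), which understates changes of low genes. The 12207 genes that reached 1 CPM in 3 or more libraries entered the fit, and p-values were adjusted over all of them by Benjamini-Hochberg. A call is an adjusted p under 0.05. The pipeline was tested before use on simulated data in which equal numbers of genes were raised and lowered. That simulation held no shift of all genes, so it does not cover the dependence on scaling seen here. Alternatives were other pseudocounts, filters and scalings, limma without trend, edgeR (4.0.16; 1792 genes fell and 1962 rose of 9842) and DESeq2 (1.42.0) on the recovered reads, thinning to equal depth, chromosome or neighbourhood medians removed, and each library left out.

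The members and lists were chosen with earlier results of these data known. The lists overlap, and genes such as Jdp2, Cebpg and Hspa5 count in each list that holds them. The rule for names took all 10 members, up to 5 called genes with the smallest adjusted p in each list, every paralog of a member, and the 5 genes closest to Atf4; some genes that it takes are not reported here. Promoter windows came from RefSeq (GRCm38.p6).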

Additional observations from a re-analysis of the deposited data

How the results depend on the processing

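Over 19 alternatives the number of members that fell ranged between 5 and 7, and Atf4, Atf5, Trib3, Chac1 and Nupr1 kept their direction and call in each. Of all tested genes 23.8% fell and 11.4% rose in the main fit. With their median set to 0 these shares were 14.4% and 17.4%, and by edgeR 18.2% and 19.9%. The count of members that rose was 0, except that it was 1 (Ddit4) with chromosome medians removed (log2 fold change 0.39), with the median of genes within 5 Mb removed (0.35) and without sgPrkci/Prkcz replicate 3. Leaving out 1 library gave 0 to 1. The rise with medians removed follows from subtracting a negative median. Sesn2 lost its call without sgPrkci/Prkcz replicate 3 (adjusted p = 0.0516) and likewise without sgC replicate 1 (0.0529) or 3 (0.0547), with quantile normalization, with the median of all genes set to 0 and with edgeR and DESeq2 (highest adjusted p = 0.275). Ppp1r15a lost its call without sgPrkci/Prkcz replicate 1 (0.178), without sgC replicate 2 (0.261) or 3 (0.0807), and in 9 other alternatives (highest adjusted p = 0.316). The cause was not tested. Of 176 tested list genes outside the members, 73 fell (41.5%, beside 23.8% of all tested genes) and 21 rose (11.9%, near the 11.4% of all). Over the alternatives the number fallen ranged between 49 (DESeq2) and 79, and the number risen between 16 and 28. Across 46 named list genes, 790 of 825 values under an alternative kept the call and 0 reversed; 26 lost it and 9 gained it. With 20 to 185 reads per genotype behind Sesn2, Ppp1r15a and the sgPrkci/Prkcz value of Chac1, counting error limits their precision. No paired analysis was possible because the labels give no numbers that pair samples between the genotypes.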
